A study of Mus musculus with 73 samples.

Results

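The 9 tumours described here are the mammary carcinosarcomas of KB1(L1363P)P mice, chosen by their genotype and histologic type labels from 73 sequenced mouse mammary tumours. Each carries a label for the percentage of epithelial tumour. In 6 tumours, called epithelium-rich here, the label is 75% (tumour 54.2), 85% (tumours 45 and 53), 90% (tumour 54.1), 95% (tumour 6) and 98% (tumour 21.1). In 3 tumours, called spindle-rich here, it is 2% (tumour 4), 5% (tumour 17) and 40% (tumour 18). The genotype label has the form of that of the established KB1P model, in which a keratin 14 promoter drives Cre in skin and mammary epithelium and deletes Brca1 and Trp53. L1363P is a missense change in the coiled-coil domain of BRCA1, which binds PALB2. All 9 tumours share this genotype, so no genotype is compared. The labels give neither age nor the full list of alleles. They do not say that each tumour came from its own animal, and tumours 54.1 and 54.2 share a number, so a p-value here reflects spread among the samples sequenced, part of which may be technical. For comparison, 3 adenocarcinomas labelled 100% and 9 sarcomatoid tumours labelled 0% of the same genotype were used, in a test that included none of the 9 carcinosarcomas.

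A carcinosarcoma holds carcinoma with cell junctions and keratins beside a spindle-cell part that resembles sarcoma. In the epithelial to mesenchymal transition, factors of the Zeb, Snail and Twist families repress E-cadherin and other junction genes, partly through E-box sequences in their promoters, and cells gain vimentin, matrix proteins and motility. The percentage is a histological estimate, whereas RNA is pooled from the whole piece of tissue. In such bulk samples, fewer cells of a type and less RNA per cell cannot be told apart.

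Polyadenylated RNA gave total counts of 14510856 to 16600855 in the epithelium-rich tumours and 14912533 to 15589128 in the spindle-rich tumours, all in 1 sequencing run. Levels are CPM, counts scaled to a library of 1000000 after correction for library composition. Because reads were counted per gene with no correction for length, levels are compared between tumours and not between genes. Slopes are changes in log2 CPM per 10 percentage points of labelled epithelium, from edgeR's quasi-likelihood test over 14645 genes, called at a Benjamini-Hochberg (BH) adjusted p under 0.05. A positive slope means a higher level at a higher percentage.

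The labels were first checked against marker genes. Epcam, an epithelial adhesion protein, had 92.4 to 1099 CPM (median 601) in epithelium-rich tumours, against 1.43, 0.809 and 502 CPM in tumours 4, 17 and 18. Cdh1, encoding E-cadherin, had 107 to 983 CPM (median 590.2) in epithelium-rich tumours, against 6.97, 5.39 and 421 CPM in tumours 4, 17 and 18. Vim, encoding the intermediate filament of mesenchymal cells, had 269.6 to 829 CPM (median 630.0) in epithelium-rich tumours, against 2109, 3083 and 1134 CPM in tumours 4, 17 and 18. Tumours 4 and 17 thus lay far below all 6 epithelium-rich tumours for both epithelial genes and above them for Vim. Tumour 18, labelled 40%, lay within the range of the 6 for Epcam and Cdh1 and above it for Vim. Tumour 6, labelled 95%, had the lowest Epcam and Cdh1 of the 6 and also little keratin: Krt8 was at 10.5 CPM there, against 237 to 619 CPM in the other 5. The keratin genes Krt7, Krt14 and Krt18, given below, overlapped between the groups, so not every epithelial marker followed the label. The mesenchymal markers Zeb1, Twist1, Cdh2 and Fn1, also given below, did not pass the test of the slope. Tumours 4 and 17 lay above the 6 in each of them, but tumour 18 did so for Fn1 only.

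Expression followed the percentage in 1222 of 14645 genes (8.34%). Of these, 379 rose (2.59%) and 843 fell (5.76%) with rising epithelial content. The split depended on the tool: DESeq2 called 1533 that rose and 1444 that fell, and limma on the deposited log2 values 807 that rose and 975 that fell. Treated as 2 groups, epithelium-rich against spindle-rich tumours, 29 genes were higher (0.198%) and 165 lower (1.13%) in the epithelium-rich group by the same test, together 1.32% of genes. With tumours 54.1 and 54.2 summed as 1 sample, 11 genes were called between the groups and 873 followed the percentage. Among the 6 epithelium-rich tumours, whose labels span 75 to 98%, no gene followed the percentage by edgeR, and 211 had an unadjusted p under 0.05. Nor was any gene called without tumours 4 and 17, where 813 had an unadjusted p under 0.05. The slopes thus rest on these tumours: without tumour 17 the total fell to 100 genes, and without tumour 4 to 127. Without tumour 18 it rose to 2076 genes, of which 890 were higher (5.89%) and 1186 lower (7.85%), and without tumour 6 it was 2265.

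Tumour 18 stands apart from the others of its group. To place each tumour on a scale that used none of the 9, genes called between adenocarcinomas and sarcomatoid tumours with at least a 2-fold difference were taken, and each tumour's level was expressed as its position between the sarcomatoid mean (0) and the adenocarcinoma mean (1). Over 1904 genes high in adenocarcinomas, the median position was 0.66 to 0.79 in the 6 epithelium-rich tumours, against 0.022 in tumour 4, -0.053 in tumour 17 and 0.66 in tumour 18. Over 1737 genes high in sarcomatoid tumours it was 0.52 to 0.96 in the 6, against 0.018, -0.052 and 0.49 in tumours 4, 17 and 18. By this measure tumours 4 and 17 lay among the sarcomatoid tumours on both scales, and tumour 18 was level with the lowest epithelium-rich tumour on the first scale and just below it on the second.

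**Figure D1:**
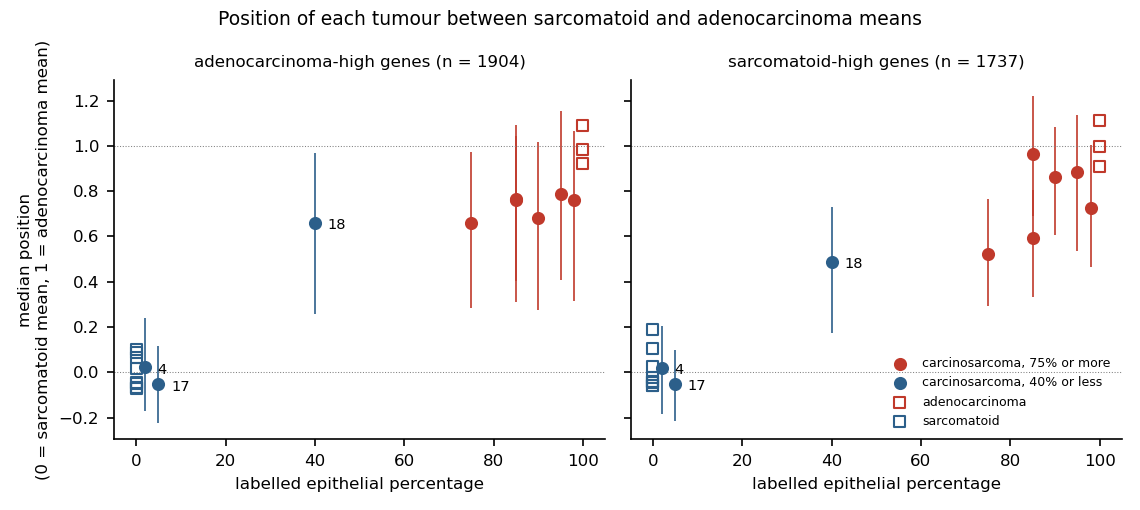
Median position of each tumour (vertical axis, 0 = sarcomatoid mean, 1 = adenocarcinoma mean) against the labelled epithelial percentage, for 1904 adenocarcinoma-high genes on the left and 1737 sarcomatoid-high genes on the right. Filled circles are the 9 carcinosarcomas with the range between quartiles over genes as lines, open squares are adenocarcinomas and sarcomatoid tumours, which define the scale; tumours 4 and 17 lie near 0 and tumour 18 near the epithelium-rich tumours.

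No gene of the epithelial core list passed the test of the slope, although many were lower in tumours 4 and 17. Of the list 0 of 18 tested members passed, with a median slope of 0.49 against 0.010 over all genes. In 12 of the 18, tumours 4 and 17 both lay below all 6 epithelium-rich tumours, which was so for 18% of all genes, and tumour 18 lay within the range of the 6 in 18 of 18 (70.4% of all genes). Krt7, a keratin of simple epithelium, was among those that overlapped, with 8.72 to 469.6 CPM (median 291) in epithelium-rich tumours, against 186, 441 and 195 CPM in tumours 4, 17 and 18. Without tumour 18, 11 of the 18 rose with the percentage, against 5.89% of all genes. Here and for the lists below, tumour 18 was singled out with its values known. Leaving out a tumour that goes against its label favours such calls, so they are no separate evidence that the list follows the percentage. List counts without tumour 6 are not given. Epcam itself did not pass over 9 tumours (slope 0.58, SE 0.29, edgeR BH-adjusted p = 0.24) and passed in the comparison of epithelium-rich tumours with tumours 4 and 17 alone, in which 6.42% of all genes were higher and 7.62% lower (log2 fold change 9.14, SE 1.25, edgeR BH-adjusted p = 0.00408). Krt18, the partner of Krt8 in simple epithelium, had 22.8 to 1143 CPM (median 652) in epithelium-rich tumours, against 177, 56.8 and 666 CPM in tumours 4, 17 and 18, and Krt14, a keratin of basal cells, had 6.51 to 161 CPM (median 45.1) in epithelium-rich tumours, against 25.3, 13.9 and 75.1 CPM in tumours 4, 17 and 18. For both keratins the groups overlapped.

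Junction genes gave few calls. Of 19 tight junction and polarity genes 1 rose and 0 fell, and of 15 desmosome and hemidesmosome genes 2 rose and 1 fell. Over all genes 2.59% rose and 5.76% fell, and calls this few say little about either list. Tjp3, encoding the tight junction scaffold ZO-3, was the single member of 19 tested in the tight junction and polarity list to pass, and had 4.45 to 21.5 CPM (median 18.1) in epithelium-rich tumours, against 0.956, 0.877 and 6.43 CPM in tumours 4, 17 and 18 (slope 0.43, SE 0.095, edgeR BH-adjusted p = 0.0273). Jup, encoding the junction protein plakoglobin, had 207 to 512 CPM (median 401) in epithelium-rich tumours, against 43.2, 36.8 and 350.4 CPM in tumours 4, 17 and 18 (slope 0.31, SE 0.083, edgeR BH-adjusted p = 0.0485). Itga6, a laminin receptor subunit of hemidesmosomes, had 431 to 1352 CPM (median 636) in epithelium-rich tumours, against 138, 183 and 520.4 CPM in tumours 4, 17 and 18 (slope 0.23, SE 0.058, edgeR BH-adjusted p = 0.0397). For each, tumours 4 and 17 lay below all 6 epithelium-rich tumours and tumour 18 within their range. Plec, encoding the linker protein plectin, went the other way, with all 3 spindle-rich tumours above the 6, as in 5.09% of all genes. It had 207 to 349.5 CPM (median 249) in epithelium-rich tumours, against 375, 659.7 and 453 CPM in tumours 4, 17 and 18 (slope -0.12, SE 0.030, edgeR BH-adjusted p = 0.041). Its hemidesmosome partner Itgb4 had 89.6 to 459 CPM (median 306) in epithelium-rich tumours, against 12.7, 16.9 and 274 CPM in tumours 4, 17 and 18 and did not pass (edgeR BH-adjusted p = 0.146). Without tumour 18, 13 of 20 members tested of the tight junction list and 8 of 15 of the desmosome list rose and 1 of the desmosome list fell, where 5.89% of all genes rose and 7.85% fell.

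None of 18 epithelial splicing and fate regulators passed over 9 tumours (median slope 0.50), yet in 16 of 18 tumours 4 and 17 lay below all 6 epithelium-rich tumours (18% of all genes), and 12 of 18 rose without tumour 18 (5.89% of all genes). Ehf, an Ets factor of epithelia, had 173 to 1028 CPM (median 546) in epithelium-rich tumours, against 1.91, 0.202 and 279 CPM in tumours 4, 17 and 18. Among 15 luminal and hormone receptor genes, Kit, a receptor kinase of luminal progenitors, was the single call, with 76.2 to 432 CPM (median 189.5) in epithelium-rich tumours, against 13.5, 8.70 and 105 CPM in tumours 4, 17 and 18 (slope 0.45, SE 0.12, edgeR BH-adjusted p = 0.0446). None of 13 basal epithelial genes passed. Over all genes 2.59% rose and 5.76% fell. A single call in a list this short, as for Kit and for Sprr1a below, says little about the list. Among 8 squamous differentiation genes tested, Sprr1a, a cornified envelope precursor, was the single call and fell, with 0.0616 to 0.821 CPM (median 0.463) in epithelium-rich tumours, against 4.03, 1.08 and 1.25 CPM in tumours 4, 17 and 18 (slope -0.30, SE 0.080, edgeR BH-adjusted p = 0.0479). Of the 6 calls on Tjp3, Jup, Itga6, Kit, Plec and Sprr1a, 6 were lost without tumour 17 (edgeR adjusted p 0.105 to 0.318) and 6 were lost without tumour 4 (edgeR adjusted p 0.0604 to 0.417), and 5 without 54.2 (0.0604 to 0.0741), 3 without 45 (0.0579 to 0.0694), 5 without 53 (0.0658 to 0.0838), 5 without 54.1 (0.0551 to 0.0789), 6 without 21.1 (0.05 to 0.0896).

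The E-box letters CAGGTG, counted on either strand, are the kind of site through which Zeb and Snail factors are known to act. They occur in the 250 bases before a RefSeq transcript start (build GRCm38.p6) of Epcam and Tjp3, shown here with the matches in capitals, since both genes were low in tumours 4 and 17.
Epcam, chr17:87635729-87635978, plus strand: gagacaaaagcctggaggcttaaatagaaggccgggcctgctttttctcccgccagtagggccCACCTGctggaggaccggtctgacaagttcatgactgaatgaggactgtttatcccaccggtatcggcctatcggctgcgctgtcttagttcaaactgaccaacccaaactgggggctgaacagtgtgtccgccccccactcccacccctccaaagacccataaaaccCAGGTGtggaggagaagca
Tjp3, chr10:81291582-81291831, minus strand: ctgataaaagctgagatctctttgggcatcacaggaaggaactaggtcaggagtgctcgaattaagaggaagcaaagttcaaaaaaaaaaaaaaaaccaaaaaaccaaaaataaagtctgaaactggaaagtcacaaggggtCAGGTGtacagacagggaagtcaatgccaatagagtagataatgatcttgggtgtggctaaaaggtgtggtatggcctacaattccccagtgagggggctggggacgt
Of 15 tight junction genes with such a window, 10 hold the letters in at least 1 window, as do 19.4% of all genes. A match describes the letters only and shows no binding.

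**Figure D2:**
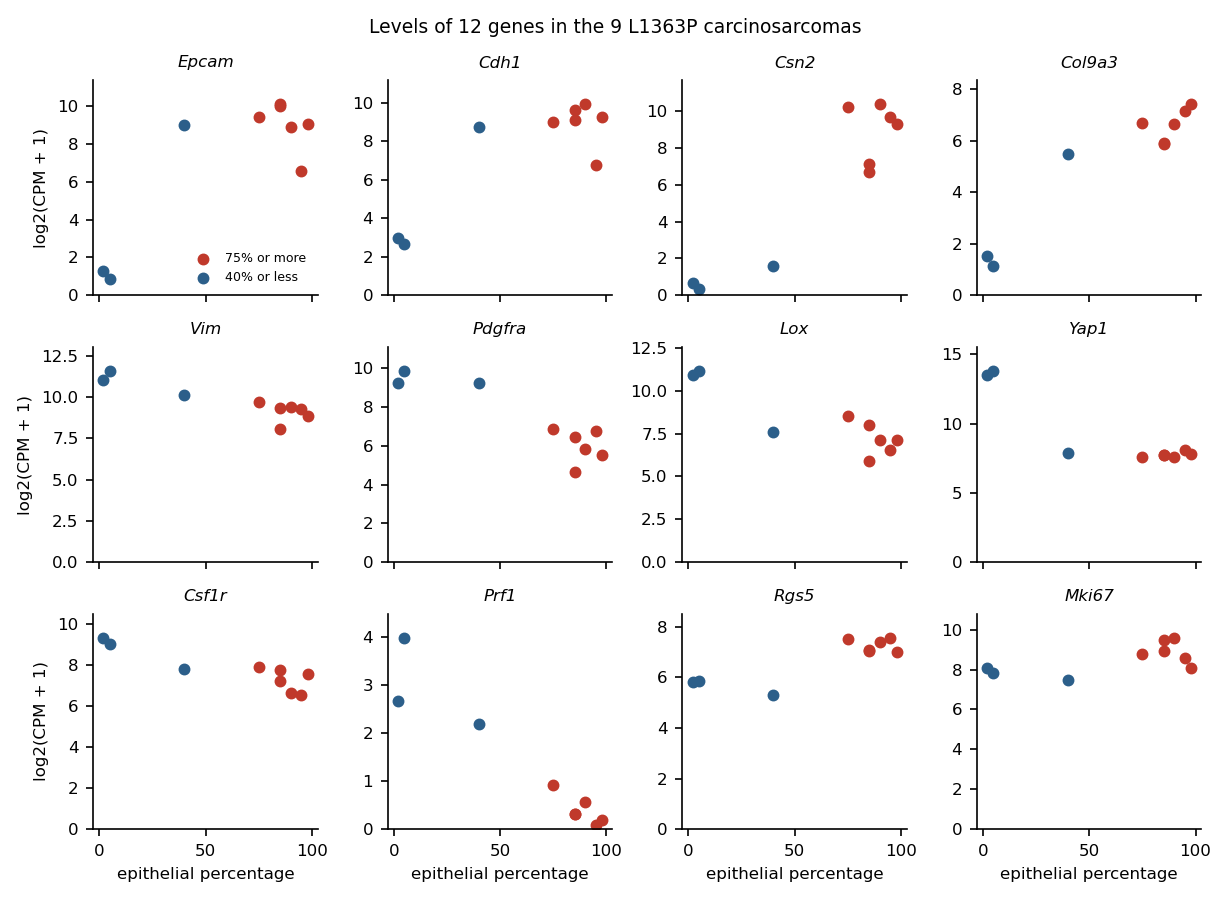
Levels of 12 genes as log2(CPM + 1) (vertical axis) against the labelled epithelial percentage (horizontal axis); each point is 1 tumour, in red for 75% or more and in blue for 40% or less. Epcam and Cdh1 separate the tumours of 2% and 5% from the other 7, Csn2 separates all 3 spindle-rich tumours from the 6, and Yap1 is raised in the tumours of 2% and 5% alone.

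Milk protein genes gave the highest count of calls among the epithelial lists. They encode caseins, whey proteins and secreted defence factors of the secretory alveolar cells, and are known targets of prolactin signalling through STAT5. Of 14 milk protein and secretory genes tested, 8 rose and 0 fell (2.59% of all genes rose), with a median slope of 0.82. Of the 14, 9 were lower in tumour 18 than in any of the 6 epithelium-rich tumours, which held for 0 of 19 tight junction genes and for 15.4% of all genes. Over the whole list, the summed level was 2595 to 12547 CPM (median 7086) in epithelium-rich tumours, against 501, 589.8 and 4032 CPM in tumours 4, 17 and 18.

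Csn2, encoding beta-casein, had 100.0 to 1325 CPM (median 712) in epithelium-rich tumours, against 0.615, 0.270 and 1.97 CPM in tumours 4, 17 and 18 (slope 1.26, SE 0.26, edgeR BH-adjusted p = 0.0233). Csn1s1, encoding alpha-S1-casein, had 93.5 to 3915 CPM (median 740.5) in epithelium-rich tumours, against 1.78, 0.607 and 56.2 CPM in tumours 4, 17 and 18 (slope 1.11, SE 0.27, edgeR BH-adjusted p = 0.0355). Csn1s2a, encoding another alpha-casein, had 27.9 to 402 CPM (median 138) in epithelium-rich tumours, against 0.273, 0.135 and 0 CPM in tumours 4, 17 and 18 (slope 1.17, SE 0.26, edgeR BH-adjusted p = 0.0285). All 3 spindle-rich tumours lay below the 6, as in 4.77% of all genes, and among the 6 each gene varied over more than an order of magnitude. Glycam1, a mucin-like milk glycoprotein, had 2.78 to 433 CPM (median 10.0) in epithelium-rich tumours, against 0, 0.0674 and 0 CPM in tumours 4, 17 and 18. Fitted slopes of Glycam1, Lalba, Wap and Pigr, which had 0 counts in at least 2 spindle-rich tumours, depend on the prior count and are not given. Lalba, the alpha-lactalbumin subunit of lactose synthase, had 0.689 to 20.9 CPM (median 9.97) in epithelium-rich tumours, against 0, 0 and 0.525 CPM in tumours 4, 17 and 18. Wap, the whey acidic protein, had 0.947 to 5.94 CPM (median 2.18) in epithelium-rich tumours, against 0, 0 and 0.0656 CPM in tumours 4, 17 and 18. For both, all spindle-rich tumours again lay below the epithelium-rich ones, and a count of 0 allows up to 0.205 CPM in tumour 4 and 0.202 CPM in tumour 17 and 0.196 CPM in tumour 18, at 3 counts, a limit that covers counting error only. Ltf, encoding the iron-binding lactoferrin, had 15.8 to 645 CPM (median 33.8) in epithelium-rich tumours, against 0.751, 0.405 and 10.6 CPM in tumours 4, 17 and 18 (slope 0.87, SE 0.19, edgeR BH-adjusted p = 0.0268). Pigr, the transporter of secreted antibodies, had 1.91 to 21.0 CPM (median 11.5) in epithelium-rich tumours, against 0, 0 and 3.61 CPM in tumours 4, 17 and 18, with tumour 18 within the range of the 6. Lcn2, an iron-carrier-binding protein of inflamed epithelium, had 255 to 3928 CPM (median 2797) in epithelium-rich tumours, against 7.51, 3.17 and 2223 CPM in tumours 4, 17 and 18 and did not pass (edgeR BH-adjusted p = 0.253). Between adenocarcinomas and sarcomatoid tumours Csn2 did not pass (log2 fold change 2.18, SE 1.48, edgeR BH-adjusted p = 0.265). Of the 8 calls on Csn2, Csn1s1, Csn1s2a, Wap, Lalba, Glycam1, Ltf and Pigr, 8 were lost without tumour 17 (edgeR adjusted p 0.0671 to 0.2) and 8 were lost without tumour 4 (edgeR adjusted p 0.0655 to 0.211), and 1 without 18 (0.0582), 2 without 54.2 (0.0535 to 0.0588), 1 without 53 (0.0501), 3 without 54.1 (0.0544 to 0.0743), 2 without 21.1 (0.0572 to 0.073).

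The 250 bases before 1 RefSeq transcript start are shown for the 3 called milk genes that hold the letters TTCNNNGAA, the core of sites known for STAT5 and the same on both strands, with the match in capitals. The Csn2 window precedes an internal transcript start and lies mostly inside the annotated span of the gene (chromosome 5, 87692624 to 87699630).
Csn1s1, chr5:87665958-87666207, plus strand: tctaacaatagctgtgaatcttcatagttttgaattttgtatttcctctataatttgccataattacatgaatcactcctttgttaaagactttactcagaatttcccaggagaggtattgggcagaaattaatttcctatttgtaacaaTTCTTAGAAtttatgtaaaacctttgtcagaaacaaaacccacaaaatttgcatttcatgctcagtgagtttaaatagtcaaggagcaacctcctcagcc
Csn2, chr5:87699426-87699675, minus strand: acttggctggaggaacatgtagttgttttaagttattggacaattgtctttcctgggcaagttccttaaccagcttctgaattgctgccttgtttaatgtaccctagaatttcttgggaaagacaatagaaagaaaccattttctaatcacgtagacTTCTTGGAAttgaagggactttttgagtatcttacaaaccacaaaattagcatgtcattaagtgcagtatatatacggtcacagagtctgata
Glycam1, chr15:103565082-103565331, minus strand: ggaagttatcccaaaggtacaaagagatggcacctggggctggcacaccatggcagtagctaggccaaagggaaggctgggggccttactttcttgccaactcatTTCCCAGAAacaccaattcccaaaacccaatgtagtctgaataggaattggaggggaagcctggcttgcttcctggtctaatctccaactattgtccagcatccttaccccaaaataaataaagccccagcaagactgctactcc
These 3 are 3 of the 8 called milk genes, all of which have a window, and the letters occur in 8.13% of all genes with a window. The other 5 (Csn1s2a, Wap, Lalba, Ltf and Pigr) do not hold them in this window.

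Other genes with large positive slopes belong to no list. Kank4, of a family of actin regulators, had 17.5 to 115 CPM (median 38.5) in epithelium-rich tumours, against 0.410, 0.405 and 8.33 CPM in tumours 4, 17 and 18 (slope 0.74, SE 0.094, edgeR BH-adjusted p = 0.00467). Adamts18, encoding a secreted protease, had 13.9 to 95.2 CPM (median 24.3) in epithelium-rich tumours, against 0.137, 0.0674 and 4.98 CPM in tumours 4, 17 and 18 (slope 0.86, SE 0.13, edgeR BH-adjusted p = 0.00697). Large2, a glycosyltransferase of dystroglycan, had 57.4 to 198 CPM (median 93.7) in epithelium-rich tumours, against 0.205, 0.0674 and 28.1 CPM in tumours 4, 17 and 18 (slope 0.79, SE 0.16, edgeR BH-adjusted p = 0.0212). All 3 were nearly absent from tumours 4 and 17, and tumour 18 lay below the 6 in each case but above tumours 4 and 17. In 4.77% of all genes the 3 spindle-rich tumours lay below the 6. Thrsp, a regulator of fatty acid synthesis in the lactating gland, had 2.59 to 56.2 CPM (median 27.2) in epithelium-rich tumours, against 0.137, 0.270 and 1.90 CPM in tumours 4, 17 and 18 (slope 0.80, SE 0.18, edgeR BH-adjusted p = 0.0268). Slc28a3, a nucleoside transporter, had 4.13 to 42.3 CPM (median 24.7) in epithelium-rich tumours, against 0.0683, 0.0674 and 6.49 CPM in tumours 4, 17 and 18 (slope 0.72, SE 0.17, edgeR BH-adjusted p = 0.0336). Kank4 kept its call whichever of the 9 tumours was left out. Of the 5 calls on Kank4, Adamts18, Large2, Thrsp and Slc28a3, 4 were lost without tumour 17 (edgeR adjusted p 0.0544 to 0.187) and 4 were lost without tumour 4 (edgeR adjusted p 0.0605 to 0.196), and 1 without 45 (0.0509), 2 without 54.1 (0.0524 to 0.0675).

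Some cartilage genes and 1 neural crest gene also rose with the epithelial percentage. Of 14 cartilage matrix genes tested 3 rose and 0 fell (2.59% of all genes rose), with a median slope of 0.56. Without tumour 18, 9 of 15 rose, against 5.89% of all genes. The summed level of the list was 986 to 1692 CPM (median 1396) in epithelium-rich tumours, against 132, 85.2 and 929.6 CPM in tumours 4, 17 and 18. Col9a3, a chain of the cartilage collagen type IX, had 57.0 to 171 CPM (median 101) in epithelium-rich tumours, against 1.91, 1.21 and 43.8 CPM in tumours 4, 17 and 18 (slope 0.59, SE 0.11, edgeR BH-adjusted p = 0.0161). Col11a1, a fibril-forming collagen of cartilage, had 163 to 730.2 CPM (median 496) in epithelium-rich tumours, against 47.0, 43.0 and 225 CPM in tumours 4, 17 and 18 (slope 0.37, SE 0.063, edgeR BH-adjusted p = 0.0114). Sox6, a transcription factor of cartilage formation, had 8.50 to 65.8 CPM (median 17.3) in epithelium-rich tumours, against 0.342, 0.135 and 8.26 CPM in tumours 4, 17 and 18 (slope 0.64, SE 0.13, edgeR BH-adjusted p = 0.0237). In all 3 genes tumours 4 and 17 lay below the 6. Of 8 neural crest and glial genes, Sox8, which encodes a factor close to SOX10, was the single call, with 23.9 to 52.2 CPM (median 36.6) in epithelium-rich tumours, against 0.410, 0 and 12.0 CPM in tumours 4, 17 and 18 (slope 0.67, SE 0.13, edgeR BH-adjusted p = 0.0194). A single call says little about that list. Sox10, also active in mammary progenitors, had 230.2 to 438 CPM (median 331) in epithelium-rich tumours, against 0.478, 0.202 and 291 CPM in tumours 4, 17 and 18. Sox10 did not pass over 9 tumours (edgeR BH-adjusted p = 0.202), with tumour 18 in the range of the 6. It passed without tumour 18 (slope 1.12, SE 0.13, edgeR BH-adjusted p = 0.00266). Tumour 18 was left out with its values known, so that pass is no separate evidence that Sox10 follows the percentage.

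Contractile genes gave 2 calls of 12, both upward (of all genes, 2.59% rose and 5.76% fell). Lmod1, an actin nucleator of smooth muscle, had 10.8 to 29.4 CPM (median 14.1) in epithelium-rich tumours, against 0.137, 0.202 and 8.85 CPM in tumours 4, 17 and 18 (slope 0.57, SE 0.13, edgeR BH-adjusted p = 0.0302). Mylk, the myosin light chain kinase, had 20.2 to 66.7 CPM (median 31.3) in epithelium-rich tumours, against 11.7, 11.3 and 9.77 CPM in tumours 4, 17 and 18 (slope 0.21, SE 0.051, edgeR BH-adjusted p = 0.0383). Acta2, smooth muscle actin, had 91.8 to 647 CPM (median 175) in epithelium-rich tumours, against 266, 298 and 45.2 CPM in tumours 4, 17 and 18, and Myh11, smooth muscle myosin, had 3.37 to 39.8 CPM (median 9.34) in epithelium-rich tumours, against 2.60, 4.18 and 1.90 CPM in tumours 4, 17 and 18. Neither passed. Among 7 bone genes Alpl, alkaline phosphatase, rose, with 14.7 to 114 CPM (median 41.5) in epithelium-rich tumours, against 1.23, 0.202 and 20.7 CPM in tumours 4, 17 and 18 (slope 0.60, SE 0.13, edgeR BH-adjusted p = 0.0296), and Phex, a phosphate regulator of bone, fell, with 0.0626 to 1.05 CPM (median 0.619) in epithelium-rich tumours, against 1.64, 7.35 and 5.11 CPM in tumours 4, 17 and 18 (slope -0.41, SE 0.11, edgeR BH-adjusted p = 0.0485). Spp1, encoding osteopontin, varied widely among the 6 tumours and had 151 to 26058 CPM (median 8263) in epithelium-rich tumours, against 615, 856 and 28090.5 CPM in tumours 4, 17 and 18. Of the 8 calls on Col9a3, Col11a1, Sox6, Sox8, Lmod1, Mylk, Alpl and Phex, 8 were lost without tumour 17 (edgeR adjusted p 0.0507 to 0.29) and 8 were lost without tumour 4 (edgeR adjusted p 0.0765 to 0.19), and 3 without 54.2 (0.0513 to 0.081), 2 without 45 (0.0582 to 0.0626), 2 without 53 (0.055 to 0.0589), 3 without 54.1 (0.0574 to 0.0895), 2 without 21.1 (0.05 to 0.0923).

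Several mesenchymal genes fell with the epithelial percentage, and here tumour 18 often stood with tumours 4 and 17. Of 13 mesenchymal markers 4 fell and 0 rose (5.76% of all genes fell), with a median slope of -0.20. In 7 of the 13, tumour 18 lay above all 6 epithelium-rich tumours, which held for 14.1% of all genes. Vim fell (slope -0.25, SE 0.040, edgeR BH-adjusted p = 0.00971), with all 3 spindle-rich tumours above the 6. S100a4, a calcium-binding protein of motile cells, had 7.04 to 31.8 CPM (median 18.9) in epithelium-rich tumours, against 138, 139.8 and 72.9 CPM in tumours 4, 17 and 18 (slope -0.34, SE 0.046, edgeR BH-adjusted p = 0.00562). Axl, a receptor kinase of mesenchymal tumour cells, had 108 to 306 CPM (median 184) in epithelium-rich tumours, against 1077, 1256 and 400.1 CPM in tumours 4, 17 and 18 (slope -0.30, SE 0.039, edgeR BH-adjusted p = 0.00528). Pdgfra, the platelet-derived growth factor receptor alpha of fibroblasts, had 24.4 to 114 CPM (median 72.5) in epithelium-rich tumours, against 616, 938 and 609.5 CPM in tumours 4, 17 and 18 (slope -0.43, SE 0.067, edgeR BH-adjusted p = 0.00832). For each of them the groups did not overlap, and the 3 spindle-rich tumours lay above all 6 in 5.09% of all genes. Fn1, encoding fibronectin, had 377 to 7119.9 CPM (median 3964) in epithelium-rich tumours, against 9512, 8571 and 13883 CPM in tumours 4, 17 and 18. Its groups did not overlap either, but it did not pass (edgeR BH-adjusted p = 0.3). Cdh2, encoding N-cadherin, had 1.86 to 45.2 CPM (median 3.63) in epithelium-rich tumours, against 74.4, 94.3 and 21.4 CPM in tumours 4, 17 and 18, likewise without a call.

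Of 14 regulators of the mesenchymal transition 4 fell and 1 rose (of all genes, 5.76% fell and 2.59% rose). Zeb2, a zinc-finger repressor of E-cadherin, had 47.5 to 106 CPM (median 75.1) in epithelium-rich tumours, against 206, 288 and 125 CPM in tumours 4, 17 and 18 (slope -0.21, SE 0.032, edgeR BH-adjusted p = 0.00896). Prrx1, a homeobox factor of mesenchyme, had 41.1 to 165 CPM (median 52.6) in epithelium-rich tumours, against 272, 309 and 237 CPM in tumours 4, 17 and 18 (slope -0.26, SE 0.059, edgeR BH-adjusted p = 0.031). Tbx18, a T-box factor of mesenchyme, had 2.47 to 12.3 CPM (median 5.82) in epithelium-rich tumours, against 33.3, 32.3 and 13.2 CPM in tumours 4, 17 and 18 (slope -0.28, SE 0.051, edgeR BH-adjusted p = 0.0139). All 3 spindle-rich tumours lay above the 6 for these genes, as in 5.09% of all genes. Foxf1, a forkhead factor of mesenchyme, had 0.493 to 1.92 CPM (median 0.620) in epithelium-rich tumours, against 8.40, 8.50 and 0.852 CPM in tumours 4, 17 and 18 (slope -0.35, SE 0.074, edgeR BH-adjusted p = 0.0238), raised in tumours 4 and 17 only. Other regulators were less uniform. Zeb1, the relative of Zeb2, had 13.0 to 82.3 CPM (median 26.1) in epithelium-rich tumours, against 147, 107 and 70.3 CPM in tumours 4, 17 and 18 (edgeR BH-adjusted p = 0.079), with tumour 6 above tumour 18. Twist1, a basic helix-loop-helix factor, had 9.96 to 45.6 CPM (median 22.5) in epithelium-rich tumours, against 46.6, 50.6 and 42.1 CPM in tumours 4, 17 and 18 (edgeR BH-adjusted p = 0.146). Snai3, a Snail family member at low level, rose, with 1.05 to 1.83 CPM (median 1.45) in epithelium-rich tumours, against 0.137, 0 and 0.787 CPM in tumours 4, 17 and 18. Of the 9 calls on Vim, S100a4, Axl, Pdgfra, Zeb2, Prrx1, Foxf1, Tbx18 and Snai3, 7 were lost without tumour 17 (edgeR adjusted p 0.0571 to 0.162) and 4 were lost without tumour 4 (edgeR adjusted p 0.0976 to 0.261), and 1 without 54.2 (0.0718), 1 without 45 (0.0694), 1 without 53 (0.0726), 3 without 54.1 (0.0514 to 0.0763), 2 without 21.1 (0.0598 to 0.0764).

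Several matrix genes fell with the percentage. Of 20 matrix glycoproteins and crosslinkers 4 fell and 0 rose, and of 19 matrix proteases and inhibitors 4 fell and 0 rose (5.76% of all genes fell). Lox, the collagen-crosslinking lysyl oxidase, had 59.7 to 359 CPM (median 139) in epithelium-rich tumours, against 1917, 2279 and 191 CPM in tumours 4, 17 and 18 (slope -0.42, SE 0.064, edgeR BH-adjusted p = 0.0078). Loxl1, a relative that crosslinks elastin, had 10.8 to 61.7 CPM (median 31.3) in epithelium-rich tumours, against 199, 263 and 47.6 CPM in tumours 4, 17 and 18 (slope -0.32, SE 0.058, edgeR BH-adjusted p = 0.0147). Both were raised in tumours 4 and 17, while tumour 18 lay within the range of the 6. Dcn, the fibroblast proteoglycan decorin, had 31.8 to 131 CPM (median 79.8) in epithelium-rich tumours, against 581, 876 and 688 CPM in tumours 4, 17 and 18 (slope -0.42, SE 0.068, edgeR BH-adjusted p = 0.0103). Fbln2, encoding fibulin-2, had 240.3 to 929 CPM (median 586) in epithelium-rich tumours, against 1306, 3522 and 1467 CPM in tumours 4, 17 and 18 (slope -0.24, SE 0.056, edgeR BH-adjusted p = 0.0336). For Dcn and Fbln2 all 3 spindle-rich tumours were above the 6, as in 5.09% of all genes.

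Of 16 collagen genes 2 rose and 2 fell, and 12 did not pass (of all genes, 2.59% rose and 5.76% fell). Col4a1 and Col4a2, the chains of basement membrane collagen, rose: Col4a1 had 711 to 1717 CPM (median 1489.8) in epithelium-rich tumours, against 470.2, 429 and 734 CPM in tumours 4, 17 and 18 (slope 0.19, SE 0.041, edgeR BH-adjusted p = 0.0289). For Col4a2 the levels were 389.6 to 901 CPM (median 751) in epithelium-rich tumours, against 276, 239 and 415 CPM in tumours 4, 17 and 18 (slope 0.17, SE 0.036, edgeR BH-adjusted p = 0.0252). Col6a1 and Col6a2, the chains of the microfibrillar collagen VI, fell: Col6a1 had 116 to 711 CPM (median 327) in epithelium-rich tumours, against 1400.1, 1061 and 539 CPM in tumours 4, 17 and 18 (slope -0.21, SE 0.052, edgeR BH-adjusted p = 0.0373). Col6a2 had 88.1 to 520.0 CPM (median 218) in epithelium-rich tumours, against 1049, 759 and 322 CPM in tumours 4, 17 and 18 (slope -0.22, SE 0.052, edgeR BH-adjusted p = 0.0347). In all 4 genes tumours 4 and 17 lay outside the range of the 6. The main fibrillar collagen gene Col1a1 had 421 to 3895 CPM (median 1228) in epithelium-rich tumours, against 3075, 6018 and 1666 CPM in tumours 4, 17 and 18, overlapping between groups, and did not pass (edgeR BH-adjusted p = 0.17).

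Among proteases and inhibitors, Mmp2, a gelatinase, had 38.0 to 260.3 CPM (median 106) in epithelium-rich tumours, against 779.7, 966 and 426 CPM in tumours 4, 17 and 18 (slope -0.33, SE 0.060, edgeR BH-adjusted p = 0.0139). Timp2, its inhibitor and cofactor, had 141 to 360.2 CPM (median 225) in epithelium-rich tumours, against 776, 1066 and 757 CPM in tumours 4, 17 and 18 (slope -0.25, SE 0.036, edgeR BH-adjusted p = 0.00656). Timp1, a further metalloproteinase inhibitor, had 34.0 to 236 CPM (median 65.1) in epithelium-rich tumours, against 284, 613 and 249 CPM in tumours 4, 17 and 18 (slope -0.28, SE 0.073, edgeR BH-adjusted p = 0.0451). All 3 spindle-rich tumours were above the 6 in each, as in 5.09% of all genes. Mmp13, a collagenase, was highest in tumour 18 and had 10.3 to 1074 CPM (median 226) in epithelium-rich tumours, against 379, 407 and 2686 CPM in tumours 4, 17 and 18, without a call. Of the 11 calls on Dcn, Fbln2, Lox, Loxl1, Col6a1, Col6a2, Col4a1, Col4a2, Mmp2, Timp1 and Timp2, 11 were lost without tumour 17 (edgeR adjusted p 0.0551 to 0.294) and 9 were lost without tumour 4 (edgeR adjusted p 0.052 to 0.227), and 2 without 54.2 (0.055 to 0.0642), 1 without 45 (0.0503), 1 without 53 (0.0683), 5 without 54.1 (0.056 to 0.0895), 3 without 21.1 (0.0645 to 0.0884).

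Several of the steepest negative slopes were in genes of no list. Msln, encoding the surface protein mesothelin, had 0.188 to 4.30 CPM (median 1.09) in epithelium-rich tumours, against 464, 462 and 32.5 CPM in tumours 4, 17 and 18 (slope -0.98, SE 0.074, edgeR BH-adjusted p = 0.000822). Il1rl1, the receptor of interleukin 33, had 1.62 to 27.2 CPM (median 4.59) in epithelium-rich tumours, against 1043, 1035 and 46.9 CPM in tumours 4, 17 and 18 (slope -0.88, SE 0.077, edgeR BH-adjusted p = 0.0012). Secreted factors were among them too. Angptl7, a secreted angiopoietin-like protein, had 0.0676 to 0.739 CPM (median 0.436) in epithelium-rich tumours, against 126, 245 and 1.05 CPM in tumours 4, 17 and 18 (slope -1.02, SE 0.10, edgeR BH-adjusted p = 0.00309). Cxcl13, a chemokine that attracts B cells, had 0.188 to 2.16 CPM (median 0.543) in epithelium-rich tumours, against 64.8, 39.6 and 3.80 CPM in tumours 4, 17 and 18 (slope -0.71, SE 0.079, edgeR BH-adjusted p = 0.00361). In these 4 genes all spindle-rich tumours lay above the 6, as in 5.09% of all genes, with tumour 18 below tumours 4 and 17. Their calls held whichever tumour was left out. Brinp3, a gene named for neural expression, had 0.0619 to 18.99 CPM (median 4.35) in epithelium-rich tumours, against 282, 309 and 93.5 CPM in tumours 4, 17 and 18 (slope -0.67, SE 0.13, edgeR BH-adjusted p = 0.0187). Chrdl1, a secreted antagonist of bone morphogenetic proteins, had 0.0676 to 4.70 CPM (median 1.09) in epithelium-rich tumours, against 94.7, 91.2 and 0.918 CPM in tumours 4, 17 and 18 (slope -0.64, SE 0.13, edgeR BH-adjusted p = 0.0192). Igf2, the fetal insulin-like growth factor, had 2.40 to 53.9 CPM (median 30.3) in epithelium-rich tumours, against 5463, 286 and 12.7 CPM in tumours 4, 17 and 18 (slope -0.71, SE 0.15, edgeR BH-adjusted p = 0.0238), with its level in tumour 4 far above that in tumour 17. Of the 7 calls on Angptl7, Msln, Il1rl1, Igf2, Cxcl13, Brinp3 and Chrdl1, 3 were lost without tumour 17 (edgeR adjusted p 0.0671 to 0.097) and 3 were lost without tumour 4 (edgeR adjusted p 0.0869 to 0.282), and 1 without 54.1 (0.053).

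A stretch of chromosome 9 around Yap1 held several of the steepest slopes. Yap1 encodes the coactivator at the end of the Hippo pathway, which turns on growth genes together with TEAD factors. Yap1 (chromosome 9, 7931999 to 8004596) had 193 to 277 CPM (median 214) in epithelium-rich tumours, against 11510.4, 14449 and 239.8 CPM in tumours 4, 17 and 18 (slope -0.64, SE 0.080, edgeR BH-adjusted p = 0.00445). Birc2 and Birc3, neighbouring genes for inhibitors of apoptosis, behaved alike: Birc2 had 38.2 to 56.6 CPM (median 44.6) in epithelium-rich tumours, against 2810.3, 2676 and 41.0 CPM in tumours 4, 17 and 18 (slope -0.65, SE 0.078, edgeR BH-adjusted p = 0.00392). For Birc3 the levels were 18.0 to 59.3 CPM (median 42.3) in epithelium-rich tumours, against 2114, 2054 and 58.0 CPM in tumours 4, 17 and 18 (slope -0.63, SE 0.070, edgeR BH-adjusted p = 0.00361). All 3 genes stood far above the other 7 tumours in tumours 4 and 17. Dcun1d5, a gene of cullin modification, had 56.2 to 64.6 CPM (median 60.2) in epithelium-rich tumours, against 4260.4, 5409.5 and 57.6 CPM in tumours 4, 17 and 18 (slope -0.69, SE 0.083, edgeR BH-adjusted p = 0.00392). Cfap300, a cilia gene, had 3.03 to 11.7 CPM (median 4.27) in epithelium-rich tumours, against 949, 1445 and 6.43 CPM in tumours 4, 17 and 18 (slope -0.82, SE 0.11, edgeR BH-adjusted p = 0.00613). The change is a step: the mean of tumours 4 and 17 was 60.5 times (Yap1), 64.7 times (Birc2) and 80.9 times (Dcun1d5) the median of the other 7 tumours in CPM, and tumour 18 lay within the range of the 6 epithelium-rich tumours. These 5 calls held whichever tumour was left out, but without both tumours 4 and 17 no gene passed.

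Within 1.5 megabases of Yap1 on either side, 19 genes were tested, of which 10 fell with the percentage and 0 rose (5.76% of all genes fell). In 14 of the 19, the 10 that fell and Mmp3, Mmp8, Trpc6 and Pgr, both tumours 4 and 17 lay above all the other 7; over all genes, 16.3% had both above the 6 epithelium-rich tumours. The neighbours named here were chosen after their values were seen. Dync2h1 (chromosome 9, 6928503 to 7184446) was at 30.7 to 58.6 CPM in the 6 epithelium-rich tumours, against 1935 and 1228 CPM in tumours 4 and 17. Arhgap42 (chromosome 9, 8994329 to 9239101) was at 69.5 to 128 CPM in the 6, against 4773 and 2794 CPM in tumours 4 and 17. Between them lies a cluster of metalloproteinase genes, of which Mmp7 fell (edgeR BH-adjusted p = 0.0271), with 0.124 to 0.678 CPM in the 6, against 7.72 and 1.48 CPM in tumours 4 and 17. Mmp3, at 7.51 to 253 CPM in the 6, against 1139 and 1144 CPM in tumours 4 and 17, did not pass (edgeR BH-adjusted p = 0.0545). The other 8 that did not pass were Mmp1a, Mmp1b, Mmp8, Mmp10, Mmp12, Mmp13, the channel gene Trpc6 and the progesterone receptor gene Pgr. DNA copy number was not analysed here.

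**Figure D3:**
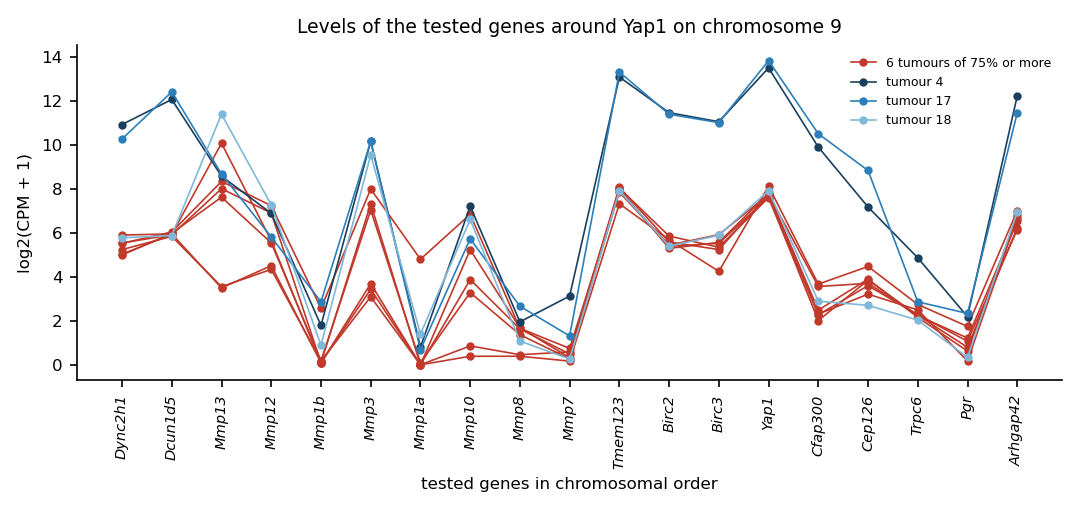
Levels as log2(CPM + 1) of the 19 tested genes within 1.5 megabases of Yap1, in chromosomal order, with 1 line per tumour: the 6 tumours of 75% or more in red, tumours 4, 17 and 18 in shades of blue. Tumours 4 and 17 lie well above all others from Tmem123 to Cep126 and at Dync2h1, Dcun1d5 and Arhgap42, while several metalloproteinase genes between them overlap.

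Of 14 Hippo and YAP target genes 7 fell and 0 rose (5.76% of all genes fell). The list includes Yap1, Birc2 and Birc3 themselves, so 4 of the 7 lie outside the stretch: Amotl2, Vgll3, Ankrd1 and Lats2. Amotl2, encoding a YAP-binding junction protein, had 34.4 to 72.3 CPM (median 60.3) in epithelium-rich tumours, against 295, 425 and 61.2 CPM in tumours 4, 17 and 18 (slope -0.29, SE 0.043, edgeR BH-adjusted p = 0.00678). Vgll3, a TEAD cofactor, had 4.51 to 18.6 CPM (median 10.1) in epithelium-rich tumours, against 167, 181 and 9.18 CPM in tumours 4, 17 and 18 (slope -0.44, SE 0.067, edgeR BH-adjusted p = 0.0078). Both genes were higher in tumours 4 and 17 than in any of the 6. Ccn2, a widely used YAP target, had 129 to 367 CPM (median 247) in epithelium-rich tumours, against 159, 119 and 199 CPM in tumours 4, 17 and 18 and did not pass (edgeR BH-adjusted p = 0.228). Tead1, encoding a DNA-binding partner of YAP, had 210.3 to 301 CPM (median 284) in epithelium-rich tumours, against 291, 283 and 286 CPM in tumours 4, 17 and 18, overlapping between groups, and did not pass (edgeR BH-adjusted p = 0.756). Of the 8 calls on Yap1, Birc2, Birc3, Dcun1d5, Cfap300, Amotl2, Vgll3 and Mmp7, 3 were lost without tumour 17 (edgeR adjusted p 0.0551 to 0.0804) and 2 were lost without tumour 4 (edgeR adjusted p 0.0545 to 0.374), and 1 without 54.2 (0.0506), 1 without 54.1 (0.0584).

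The 250 bases before 1 RefSeq transcript start of Amotl2 and of Vgll3 are shown because both hold the letters CATTCC, the core of sites known for TEAD factors, here in capitals. The Amotl2 window lies inside the annotated span of the gene (chromosome 9, 102716672 to 102733418), before an internal transcript start.
Amotl2, chr9:102717554-102717803, plus strand: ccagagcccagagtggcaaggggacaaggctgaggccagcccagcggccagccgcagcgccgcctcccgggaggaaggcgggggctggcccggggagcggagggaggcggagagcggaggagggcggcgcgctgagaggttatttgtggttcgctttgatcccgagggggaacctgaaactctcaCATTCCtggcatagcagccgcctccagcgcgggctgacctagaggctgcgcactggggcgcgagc
Vgll3, chr16:65814939-65815188, plus strand: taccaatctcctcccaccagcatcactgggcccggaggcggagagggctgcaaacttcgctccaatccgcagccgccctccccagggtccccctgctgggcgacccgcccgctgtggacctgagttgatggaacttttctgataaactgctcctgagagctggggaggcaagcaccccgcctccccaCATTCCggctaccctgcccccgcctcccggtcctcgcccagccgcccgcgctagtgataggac
On either strand the letters occur in 4 of the 7 called Hippo genes (Yap1, Ankrd1, Amotl2 and Vgll3), all of which have a window, and in 14.4% of all genes with a window. Over the whole list they occur in 7 of 11 genes with a window, including the uncalled Wwtr1, Ccn1 and Ajuba. The letters thus do not set the called genes apart from the rest of the list.

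Many genes of immune cells fell with the epithelial percentage. Of 14 T and NK cell genes 7 fell and 0 rose (5.76% of all genes fell), with a median slope of -0.27, and the summed level of the list was 17.5 to 36.1 CPM (median 25.2) in epithelium-rich tumours, against 158, 97.7 and 62.4 CPM in tumours 4, 17 and 18. Of 5 B and plasma cell genes 3 fell. Of 12 macrophage genes 9 fell and 0 rose, against the same 5.76%, with a median slope of -0.22. Leukocyte marker Ptprc, encoding CD45, had 28.3 to 127 CPM (median 87.5) in epithelium-rich tumours, against 291, 233 and 92.1 CPM in tumours 4, 17 and 18 (slope -0.19, SE 0.048, edgeR BH-adjusted p = 0.0408). For Ptprc, tumours 4 and 17 were above the 6, and tumour 18 was within their range.

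Prf1, encoding perforin of killer lymphocytes, had 0.0619 to 0.884 CPM (median 0.248) in epithelium-rich tumours, against 5.33, 14.9 and 3.54 CPM in tumours 4, 17 and 18 (slope -0.63, SE 0.076, edgeR BH-adjusted p = 0.00392). Gzmb, encoding granzyme B, had 0.124 to 2.69 CPM (median 0.902) in epithelium-rich tumours, against 12.0, 19.3 and 3.54 CPM in tumours 4, 17 and 18 (slope -0.45, SE 0.077, edgeR BH-adjusted p = 0.012). Nkg7, a granule protein of the same cells, had 0.123 to 0.879 CPM (median 0.585) in epithelium-rich tumours, against 12.8, 7.35 and 0.983 CPM in tumours 4, 17 and 18 (slope -0.46, SE 0.073, edgeR BH-adjusted p = 0.00904). In these cytotoxic genes all 3 spindle-rich tumours exceeded all 6 epithelium-rich tumours, as in 5.09% of all genes. For Nkg7 the gap was narrow, 0.983 CPM in tumour 18 against at most 0.879 CPM in the 6. That gap is less than 3 counts in tumour 18, which are 0.196 CPM. Chains of the T cell receptor complex also fell. Cd3e had 0.275 to 2.02 CPM (median 1.33) in epithelium-rich tumours, against 12.2, 4.72 and 0.918 CPM in tumours 4, 17 and 18 (slope -0.30, SE 0.079, edgeR BH-adjusted p = 0.0487). Cd3g, another chain of the complex, had 0.550 to 1.29 CPM (median 1.21) in epithelium-rich tumours, against 14.8, 6.27 and 1.44 CPM in tumours 4, 17 and 18 (slope -0.36, SE 0.056, edgeR BH-adjusted p = 0.00905). Trbc2, a constant segment of the receptor beta chain, had 0.438 to 1.33 CPM (median 0.864) in epithelium-rich tumours, against 5.60, 2.63 and 0.787 CPM in tumours 4, 17 and 18 (slope -0.25, SE 0.059, edgeR BH-adjusted p = 0.0347). All were raised in tumour 4 more than in tumour 17. Immunoglobulin genes were highest in tumour 4: Igkc, the kappa constant segment, had 0.124 to 6.84 CPM (median 1.91) in epithelium-rich tumours, against 164, 15.5 and 1.70 CPM in tumours 4, 17 and 18 (slope -0.59, SE 0.12, edgeR BH-adjusted p = 0.0205). Ighm, the mu heavy chain, had 1.72 to 10.1 CPM (median 7.64) in epithelium-rich tumours, against 103, 24.8 and 8.59 CPM in tumours 4, 17 and 18 (slope -0.34, SE 0.071, edgeR BH-adjusted p = 0.0229). Jchain, which joins secreted antibodies, had 0.557 to 2.90 CPM (median 0.813) in epithelium-rich tumours, against 36.4, 3.64 and 0.983 CPM in tumours 4, 17 and 18 (slope -0.46, SE 0.093, edgeR BH-adjusted p = 0.0206). The B cell receptor component Cd79a was at 1.30 CPM in tumour 4 and at 0.0626 to 0.472 CPM in the other 8, below the filter on low counts. Of the 9 calls on Cd3e, Cd3g, Trbc2, Nkg7, Prf1, Gzmb, Igkc, Jchain and Ighm, 6 were lost without tumour 17 (edgeR adjusted p 0.0536 to 0.153) and 8 were lost without tumour 4 (edgeR adjusted p 0.0584 to 0.423), and 2 without 54.2 (0.0552 to 0.0742), 2 without 45 (0.0501 to 0.0749), 2 without 53 (0.0571 to 0.0828), 2 without 54.1 (0.0694 to 0.0709), 1 without 21.1 (0.0504).

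Csf1r, the receptor of macrophage growth factor, had 92.1 to 237 CPM (median 169) in epithelium-rich tumours, against 646, 523 and 227 CPM in tumours 4, 17 and 18 (slope -0.21, SE 0.038, edgeR BH-adjusted p = 0.0137). Lyz2, encoding lysozyme of myeloid cells, had 363 to 899 CPM (median 526) in epithelium-rich tumours, against 2086, 3769 and 739 CPM in tumours 4, 17 and 18 (slope -0.26, SE 0.045, edgeR BH-adjusted p = 0.0128). Msr1, a scavenger receptor, had 24.9 to 95.6 CPM (median 82.2) in epithelium-rich tumours, against 282, 489.7 and 92.1 CPM in tumours 4, 17 and 18 (slope -0.27, SE 0.049, edgeR BH-adjusted p = 0.0144). Tumours 4 and 17 lay above the 6 in all of these, and tumour 18 within their range, as it did in 12 of 12 macrophage genes and in 70.4% of all genes. C1qb, a complement component made by macrophages, had 104 to 241 CPM (median 127) in epithelium-rich tumours, against 642, 646 and 146 CPM in tumours 4, 17 and 18 (slope -0.22, SE 0.046, edgeR BH-adjusted p = 0.0237). Cd68, a lysosomal protein of macrophages, had 36.2 to 84.8 CPM (median 55.3) in epithelium-rich tumours, against 162, 222 and 81.0 CPM in tumours 4, 17 and 18 (slope -0.19, SE 0.038, edgeR BH-adjusted p = 0.0198). Of 12 genes of dendritic cells and MHC class II 3 fell (5.76% of all genes fell), and these followed tumour 4. H2-Aa, a class II chain, had 181 to 624 CPM (median 367) in epithelium-rich tumours, against 2975, 559.6 and 593 CPM in tumours 4, 17 and 18 (slope -0.26, SE 0.064, edgeR BH-adjusted p = 0.0397). H2-Eb1, a further class II chain, had 2.13 to 5.73 CPM (median 4.50) in epithelium-rich tumours, against 34.4, 6.61 and 7.21 CPM in tumours 4, 17 and 18 (slope -0.26, SE 0.062, edgeR BH-adjusted p = 0.0345). H2-DMa, which loads peptide on class II, had 12.8 to 26.2 CPM (median 22.7) in epithelium-rich tumours, against 146, 44.0 and 23.1 CPM in tumours 4, 17 and 18 (slope -0.24, SE 0.051, edgeR BH-adjusted p = 0.0261). For H2-Aa tumour 17 lay within the range of the 6. None of 6 neutrophil genes, 10 MHC class I genes and 16 interferon response genes passed. S100a8 of neutrophils had 1.98 to 19.5 CPM (median 9.56) in epithelium-rich tumours, against 16.5, 22.5 and 47.4 CPM in tumours 4, 17 and 18. Macrophage list totals were 1088 to 2396 CPM (median 1585) in epithelium-rich tumours, against 5955, 8191 and 1781 CPM in tumours 4, 17 and 18. Whether the immune cell levels bear on other slopes was not tested. Of the 9 calls on Csf1r, Cd68, Lyz2, C1qb, Msr1, Ptprc, H2-Aa, H2-Eb1 and H2-DMa, 9 were lost without tumour 17 (edgeR adjusted p 0.0536 to 0.183) and 9 were lost without tumour 4 (edgeR adjusted p 0.0549 to 0.518), and 3 without 54.2 (0.056 to 0.0617), 2 without 45 (0.0534 to 0.0555), 3 without 53 (0.0589 to 0.0735), 4 without 54.1 (0.053 to 0.0807).

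Vessel genes behaved in 2 ways. None of 12 endothelial genes passed, and their median slope was 0.015. Pecam1, an endothelial adhesion protein, had 60.0 to 125 CPM (median 85.2) in epithelium-rich tumours, against 90.6, 88.9 and 62.6 CPM in tumours 4, 17 and 18. Cdh5, the cadherin of endothelium, had 48.6 to 137 CPM (median 90.4) in epithelium-rich tumours, against 87.7, 78.0 and 77.6 CPM in tumours 4, 17 and 18. The groups overlapped in both. Of 8 pericyte genes, 4 rose and 0 fell (2.59% of all genes rose). Rgs5, a signalling regulator of pericytes, had 127 to 189.7 CPM (median 152) in epithelium-rich tumours, against 54.9, 56.8 and 38.7 CPM in tumours 4, 17 and 18 (slope 0.19, SE 0.042, edgeR BH-adjusted p = 0.0296). Cspg4, the proteoglycan NG2, had 14.4 to 53.8 CPM (median 32.2) in epithelium-rich tumours, against 4.17, 6.47 and 11.0 CPM in tumours 4, 17 and 18 (slope 0.30, SE 0.066, edgeR BH-adjusted p = 0.0279). Mcam, the adhesion protein CD146, had 137 to 291 CPM (median 181) in epithelium-rich tumours, against 88.5, 79.7 and 101 CPM in tumours 4, 17 and 18 (slope 0.15, SE 0.039, edgeR BH-adjusted p = 0.0497). In these 3 genes all spindle-rich tumours lay below the 6, as in 4.77% of all genes. Notch3, a receptor of vessel-wall cells, had 32.7 to 81.3 CPM (median 73.2) in epithelium-rich tumours, against 19.5, 19.4 and 50.9 CPM in tumours 4, 17 and 18 (slope 0.18, SE 0.046, edgeR BH-adjusted p = 0.0406). For Notch3 tumour 18 lay within the range of the 6. None of 8 adipocyte, 5 skeletal muscle and 4 haemoglobin genes passed, and Adipoq of fat cells had 0 to 2.65 CPM (median 1.27) in epithelium-rich tumours, against 0, 0.539 and 0 CPM in tumours 4, 17 and 18. Ckm, muscle creatine kinase, was at 95.4 CPM in tumour 6 and at 0 to 1.83 CPM in the other 8. Hbb-bs of red cells had 7.64 to 82.0 CPM (median 41.6) in epithelium-rich tumours, against 9.09, 15.4 and 82.1 CPM in tumours 4, 17 and 18. Of the 4 calls on Rgs5, Cspg4, Mcam and Notch3, 4 were lost without tumour 17 (edgeR adjusted p 0.147 to 0.249) and 4 were lost without tumour 4 (edgeR adjusted p 0.145 to 0.255), and 1 without 18 (0.0641), 2 without 54.2 (0.0616 to 0.0733), 2 without 45 (0.0608 to 0.0675), 2 without 53 (0.0574 to 0.0589), 2 without 54.1 (0.0572 to 0.0607), 1 without 6 (0.0529), 1 without 21.1 (0.0698).

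Signalling pathways gave calls in both directions. Of 25 Wnt pathway genes 6 rose and 3 fell (of all genes, 2.59% rose and 5.76% fell). Fzd7, a Wnt receptor, had 221 to 302 CPM (median 258) in epithelium-rich tumours, against 37.5, 36.4 and 250.3 CPM in tumours 4, 17 and 18 (slope 0.27, SE 0.063, edgeR BH-adjusted p = 0.0343). Znrf3, a Wnt-induced ligase that removes such receptors, had 25.9 to 53.9 CPM (median 30.2) in epithelium-rich tumours, against 14.9, 14.4 and 24.3 CPM in tumours 4, 17 and 18 (slope 0.14, SE 0.033, edgeR BH-adjusted p = 0.0336). The other 4 that rose were Lrp5, Tcf7, Nkd1 and Rnf43. The 3 that fell encode secreted proteins that modulate Wnt signals. Dkk2 had 1.72 to 13.9 CPM (median 6.12) in epithelium-rich tumours, against 97.8, 122 and 12.1 CPM in tumours 4, 17 and 18 (slope -0.47, SE 0.079, edgeR BH-adjusted p = 0.0118). Dkk3 had 21.0 to 47.7 CPM (median 30.0) in epithelium-rich tumours, against 112, 102 and 47.1 CPM in tumours 4, 17 and 18 (slope -0.20, SE 0.030, edgeR BH-adjusted p = 0.00751). Sfrp2 had 1.57 to 20.5 CPM (median 8.63) in epithelium-rich tumours, against 118, 69.1 and 13.1 CPM in tumours 4, 17 and 18 (slope -0.37, SE 0.084, edgeR BH-adjusted p = 0.0304). Tumours 4 and 17 were above the 6 in these genes, and below them in Fzd7 and Znrf3. Of 14 Notch pathway genes 2 rose (2.59% of all genes rose), Notch3 and its target Heyl, which had 10.7 to 37.6 CPM (median 15.9) in epithelium-rich tumours, against 2.46, 3.78 and 5.57 CPM in tumours 4, 17 and 18 (slope 0.30, SE 0.075, edgeR BH-adjusted p = 0.0396). Of the 6 calls on Fzd7, Znrf3, Dkk2, Dkk3, Sfrp2 and Heyl, 6 were lost without tumour 17 (edgeR adjusted p 0.0571 to 0.222) and 6 were lost without tumour 4 (edgeR adjusted p 0.0636 to 0.241), and 1 without 18 (0.0521), 3 without 54.2 (0.0576 to 0.06), 3 without 53 (0.0515 to 0.0593), 4 without 54.1 (0.0512 to 0.0613), 1 without 21.1 (0.0583).

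Of 20 genes of the TGF-beta and bone morphogenetic protein (BMP) pathway 4 fell and 0 rose (5.76% of all genes fell). Tgfbr2, the TGF-beta receptor, had 115 to 291 CPM (median 219) in epithelium-rich tumours, against 991, 1366 and 241 CPM in tumours 4, 17 and 18 (slope -0.28, SE 0.043, edgeR BH-adjusted p = 0.00763). Acvrl1, a receptor kinase of the same family, had 13.4 to 25.7 CPM (median 23.0) in epithelium-rich tumours, against 60.2, 98.3 and 20.2 CPM in tumours 4, 17 and 18 (slope -0.20, SE 0.041, edgeR BH-adjusted p = 0.0234). Ligand and binding-protein genes moved the same way. Bmp4, a ligand, had 0.379 to 2.41 CPM (median 1.27) in epithelium-rich tumours, against 26.3, 15.5 and 2.16 CPM in tumours 4, 17 and 18 (slope -0.41, SE 0.075, edgeR BH-adjusted p = 0.0143). Bmper, a BMP-binding protein, had 2.37 to 18.9 CPM (median 3.61) in epithelium-rich tumours, against 43.6, 51.0 and 6.23 CPM in tumours 4, 17 and 18 (slope -0.33, SE 0.082, edgeR BH-adjusted p = 0.0404). All 4 were raised in tumours 4 and 17, with tumour 18 within the range of the 6. Of 16 Ras-MAPK feedback genes 2 rose (2.59% of all genes rose), Etv4 and Etv5, Ets factors induced by growth factor signals. Etv5 had 145 to 341 CPM (median 210.3) in epithelium-rich tumours, against 43.4, 43.4 and 149.6 CPM in tumours 4, 17 and 18 (slope 0.26, SE 0.041, edgeR BH-adjusted p = 0.00946). Etv4 had 55.7 to 151 CPM (median 67.1) in epithelium-rich tumours, against 25.6, 22.8 and 63.5 CPM in tumours 4, 17 and 18 (slope 0.19, SE 0.047, edgeR BH-adjusted p = 0.0369). Of 25 receptor tyrosine kinases 2 rose, Kit and Fgfr4, and 2 fell, Pdgfra and Axl, against 2.59% and 5.76% of all genes. Fgfr4 was low except in tumour 6, with 0.751 to 16.8 CPM (median 1.15) in epithelium-rich tumours, against 0.137, 0 and 0.328 CPM in tumours 4, 17 and 18. None of 10 Hedgehog pathway genes passed. Of the 7 calls on Tgfbr2, Acvrl1, Bmp4, Bmper, Etv4, Etv5 and Fgfr4, 7 were lost without tumour 17 (edgeR adjusted p 0.0671 to 0.223) and 6 were lost without tumour 4 (edgeR adjusted p 0.0902 to 0.213), and 1 without 18 (0.0554), 3 without 54.2 (0.0594 to 0.0679), 2 without 45 (0.0516 to 0.057), 3 without 53 (0.0543 to 0.0703), 4 without 54.1 (0.0507 to 0.0789), 1 without 21.1 (0.0733).

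Genes of 2 drug efflux pumps fell. Abcb1b, encoding a P-glycoprotein that exports many drugs, had 4.26 to 17.9 CPM (median 5.44) in epithelium-rich tumours, against 72.1, 86.4 and 49.7 CPM in tumours 4, 17 and 18 (slope -0.39, SE 0.070, edgeR BH-adjusted p = 0.0137). Abcc1, a multidrug resistance protein, had 76.7 to 99.5 CPM (median 86.4) in epithelium-rich tumours, against 192, 241 and 145 CPM in tumours 4, 17 and 18 (slope -0.15, SE 0.019, edgeR BH-adjusted p = 0.00467). These were 2 of 6 efflux genes tested (5.76% of all genes fell), and in both all 3 spindle-rich tumours exceeded the 6, as they did in 5.09% of all genes. Of the 2 calls on Abcb1b and Abcc1, 1 was lost without tumour 17 (edgeR adjusted p 0.0843) and 1 was lost without tumour 4 (edgeR adjusted p 0.0656).

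Cell-cycle genes were lowest in tumour 18. None of 20 proliferation genes passed, and tumour 18 lay below all 6 epithelium-rich tumours in 20 of 20, against 15.4% of all genes. Mki67, a marker of cycling cells, had 270.5 to 775 CPM (median 470.3) in epithelium-rich tumours, against 274, 224 and 177 CPM in tumours 4, 17 and 18 (edgeR BH-adjusted p = 0.155). Top2a, a topoisomerase of dividing cells, had 295 to 651 CPM (median 480.5) in epithelium-rich tumours, against 348, 370.1 and 217 CPM in tumours 4, 17 and 18 (edgeR BH-adjusted p = 0.364). Tumour 18 was also below the 6 in 14 of 19 homologous recombination genes, against the same 15.4%. Brca1, the altered gene itself, had 27.5 to 50.9 CPM (median 46.6) in epithelium-rich tumours, against 45.1, 39.4 and 20.1 CPM in tumours 4, 17 and 18 (slope 0.011, SE 0.039, edgeR BH-adjusted p = 0.877). Brca2 had 25.8 to 59.9 CPM (median 33.4) in epithelium-rich tumours, against 33.2, 27.4 and 11.7 CPM in tumours 4, 17 and 18 (edgeR BH-adjusted p = 0.441). Palb2, which bridges the BRCA1 and BRCA2 proteins, had 9.40 to 19.5 CPM (median 14.3) in epithelium-rich tumours, against 12.8, 9.85 and 8.98 CPM in tumours 4, 17 and 18 (edgeR BH-adjusted p = 0.539). In these 3 genes tumour 18 was lowest and tumours 4 and 17 lay within the range of the 6. Bard1, the binding partner of BRCA1, was the single call of the 19 homologous recombination genes and rose, where 2.59% of all genes rose. A single call says little about the list. Bard1 had 18.0 to 27.9 CPM (median 26.5) in epithelium-rich tumours, against 11.5, 11.6 and 10.7 CPM in tumours 4, 17 and 18 (slope 0.14, SE 0.034, edgeR BH-adjusted p = 0.0398). Trp53 had 16.8 to 24.96 CPM (median 19.5) in epithelium-rich tumours, against 25.8, 17.3 and 18.8 CPM in tumours 4, 17 and 18 and did not pass (edgeR BH-adjusted p = 0.852). Gene totals do not show whether exons were missing.

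Metabolic lists gave few calls. Of 22 glycolysis and hypoxia genes 4 fell and 0 rose (of all genes, 2.59% rose and 5.76% fell). P4ha2, a collagen prolyl hydroxylase, had 21.3 to 64.2 CPM (median 56.1) in epithelium-rich tumours, against 207, 223 and 94.0 CPM in tumours 4, 17 and 18 (slope -0.25, SE 0.034, edgeR BH-adjusted p = 0.00544). Slc16a3, a lactate exporter, had 35.8 to 72.7 CPM (median 52.6) in epithelium-rich tumours, against 159, 208 and 101 CPM in tumours 4, 17 and 18 (slope -0.19, SE 0.035, edgeR BH-adjusted p = 0.0139). Adm, the hypoxia-induced peptide adrenomedullin, had 6.76 to 26.3 CPM (median 11.1) in epithelium-rich tumours, against 40.0, 50.8 and 44.1 CPM in tumours 4, 17 and 18 (slope -0.23, SE 0.054, edgeR BH-adjusted p = 0.0354). Pgk1, a glycolytic kinase, had 113 to 185 CPM (median 134) in epithelium-rich tumours, against 263, 280.1 and 173 CPM in tumours 4, 17 and 18 (slope -0.10, SE 0.025, edgeR BH-adjusted p = 0.0362). All 4 were higher in tumours 4 and 17 than in the 6. Among 13 Nrf2 antioxidant genes Gpx2, a glutathione peroxidase of epithelia, rose, with 1.24 to 17.3 CPM (median 2.34) in epithelium-rich tumours, against 0, 0 and 0.459 CPM in tumours 4, 17 and 18. Srxn1, encoding sulfiredoxin, fell, with 13.2 to 51.4 CPM (median 32.7) in epithelium-rich tumours, against 82.4, 80.2 and 52.9 CPM in tumours 4, 17 and 18 (slope -0.16, SE 0.040, edgeR BH-adjusted p = 0.0372). Of 12 p53 target genes 1 fell, which is near the 5.76% of all genes that fell: Ccng1, encoding cyclin G1, had 55.8 to 82.2 CPM (median 69.0) in epithelium-rich tumours, against 140.4, 145 and 65.1 CPM in tumours 4, 17 and 18 (slope -0.11, SE 0.026, edgeR BH-adjusted p = 0.0345). None of 16 oxidative phosphorylation, 20 fatty acid and cholesterol synthesis, 15 unfolded protein, 20 Hox, 22 ribosomal protein and 7 mitochondrially encoded genes passed. Of the 8 calls on Bard1, Ccng1, Pgk1, Slc16a3, Adm, P4ha2, Gpx2 and Srxn1, 8 were lost without tumour 17 (edgeR adjusted p 0.051 to 0.218) and 7 were lost without tumour 4 (edgeR adjusted p 0.0741 to 0.211), and 4 without 54.2 (0.0576 to 0.0617), 4 without 45 (0.0516 to 0.0608), 4 without 53 (0.0574 to 0.0681), 3 without 54.1 (0.0626 to 0.0745), 5 without 21.1 (0.0527 to 0.0705).

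**Figure D4:**
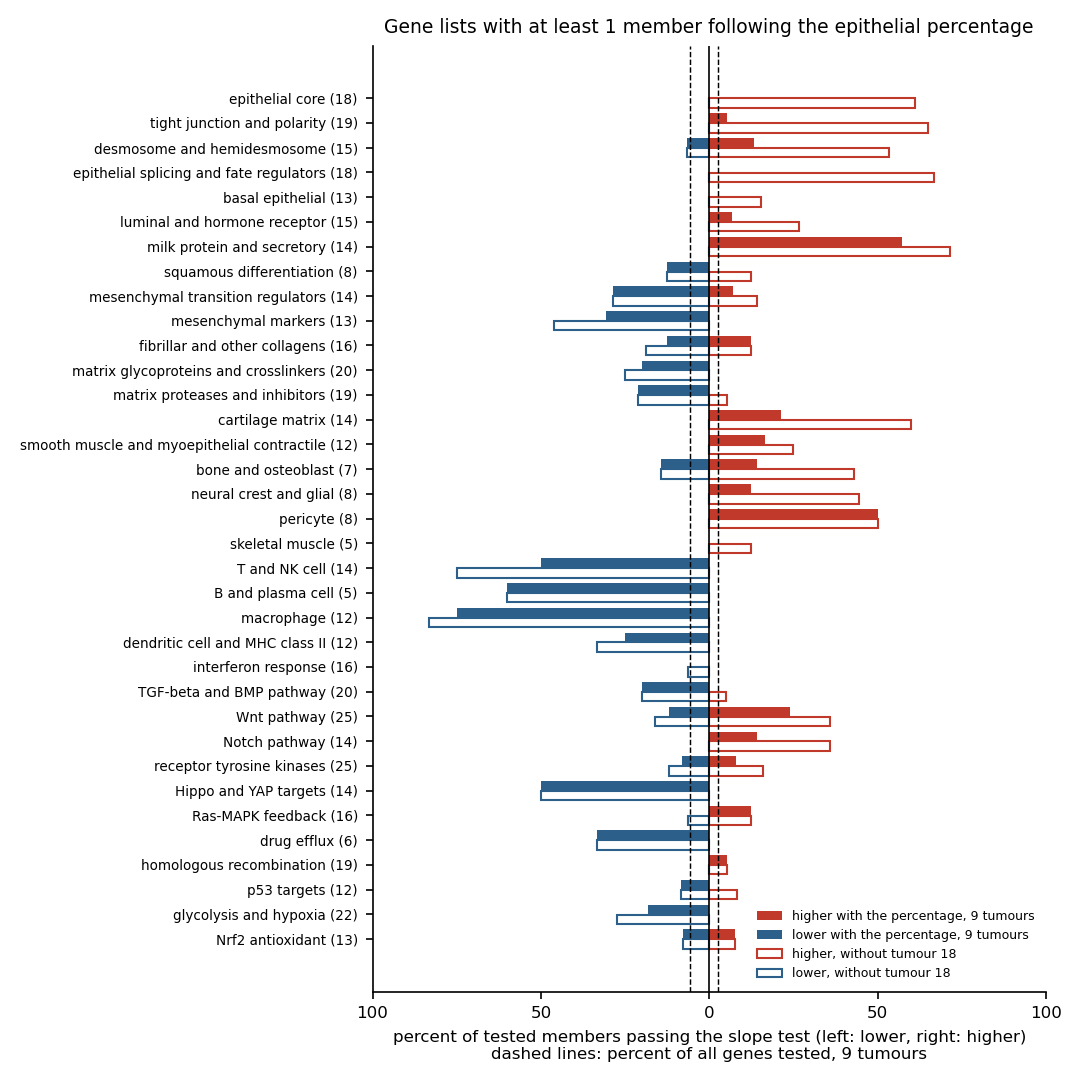
Percent of tested members that passed the slope test (horizontal axis), higher with the percentage to the right in red and lower to the left in blue, for the lists with at least 1 call in either fit; the number tested over 9 tumours is in brackets. Filled bars are the fit of 9 tumours, open bars the fit without tumour 18, and dashed lines the 2.59% and 5.76% of all genes called in the fit of 9. Tumour 18 was singled out with its values known, so the open bars are no separate evidence. Without tumour 18 more genes were called over all genes too (5.89% rose and 7.85% fell), and the epithelial core, tight junction and desmosome lists gain calls there, while macrophage and T cell lists have members that fell in both.

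Over all 48 lists, 38 of 650 different genes tested rose and 65 fell (of all genes, 2.59% rose and 5.76% fell).

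The genes that followed the percentage were then set beside the comparison of adenocarcinomas with sarcomatoid tumours, which shares no tumour with the 9. There 3123 of 14824 genes were higher (21.1%) and 2362 lower (15.9%) in adenocarcinomas, together 37% of genes. Of the 379 genes that rose with the percentage, 350 were tested in both, 98% of them were higher in adenocarcinomas and 78% were also called. Of the 843 that fell, 97.9% were lower in adenocarcinomas and 77.8% were also called. Over all 14287 genes tested in both, 54.2% were higher in adenocarcinomas, and 78.8% had the same sign in both comparisons. The median log2 fold change, adenocarcinoma over sarcomatoid, was 1.67 for genes that rose and -2.01 for those that fell, against 0.085 over all genes.

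Vim differed in the same direction there (log2 fold change -2.21, SE 0.38, edgeR BH-adjusted p = 0.000836), as did Zeb2 (log2 fold change -2.59, SE 0.21, edgeR BH-adjusted p = 8.93e-06). Epcam was also higher in adenocarcinomas (log2 fold change 6.37, SE 0.94, edgeR BH-adjusted p = 0.000314). Yap1 was lower in adenocarcinomas (log2 fold change -4.78, SE 0.86, edgeR BH-adjusted p = 0.0011). The pericyte gene Rgs5 did not pass there (log2 fold change 0.52, SE 0.51, edgeR BH-adjusted p = 0.453), nor did Cd3g of T cells (log2 fold change -1.14, SE 1.03, edgeR BH-adjusted p = 0.405). Of 15 T and NK cell genes tested, 2 were lower and 1 higher in adenocarcinomas (of all genes, 15.9% were lower and 21.1% higher). Of 12 macrophage genes, 11 were lower. The 3 genes called in opposite directions were Cd96, a receptor of T and NK cells, Clec2i, a ligand of such receptors, and Haus7, a mitotic spindle gene. They fell with the percentage and were higher in adenocarcinomas.

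**Figure D5:**
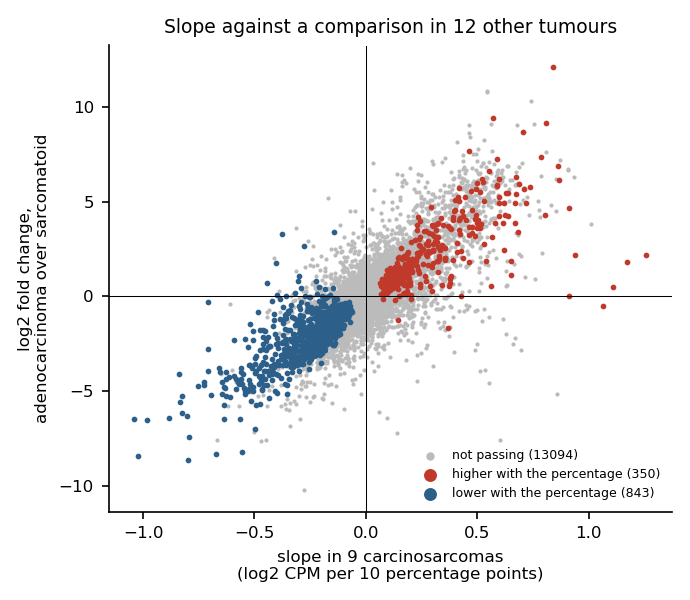
Slope in the 9 carcinosarcomas (horizontal axis, log2 CPM per 10 percentage points) against the log2 fold change of adenocarcinomas over sarcomatoid tumours (vertical axis), with 1 point per gene: red for 350 genes that rose, blue for 843 that fell, grey for those that did not pass. Nearly all red points lie above 0 and nearly all blue points below it.

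The genes with the largest spread of log2 level among the 6 epithelium-rich tumours are given as a description, with no test. They include Spp1 and Mmp13, described above. Met, the receptor of hepatocyte growth factor, was at 11188 CPM in tumour 54.2, 14804 in 53, 9063 in 54.1 and 10727 in 21.1. It was at 1187 CPM in tumour 45 and 30.7 in tumour 6, against 377, 427 and 138 CPM in tumours 4, 17 and 18. Capza2, an actin capping gene, had 205 to 14879.9 CPM (median 7764) in epithelium-rich tumours, against 404, 474 and 276 CPM in tumours 4, 17 and 18. Lsm8, an RNA-binding gene, had 58.9 to 3410.5 CPM (median 1915) in epithelium-rich tumours, against 41.5, 46.6 and 39.3 CPM in tumours 4, 17 and 18. Cftr, the chloride channel gene, had 1.79 to 940.3 CPM (median 194) in epithelium-rich tumours, against 3.21, 5.53 and 2.95 CPM in tumours 4, 17 and 18. All 4 genes are on chromosome 6, and each was lowest of the 6 in tumour 6. Capn6, a calpain gene, had 5.48 to 1235 CPM (median 316) in epithelium-rich tumours, against 39.1, 50.8 and 12.0 CPM in tumours 4, 17 and 18. Mest, an imprinted gene, was at 1075 CPM in tumour 6 and at 7.64 to 28.7 CPM in the other 5. Tumours of equal label could differ: tumours 45 and 53, both 85%, had 1187 and 14804 CPM of Met.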

How the data were processed

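Mouse mammary tumours were sequenced as stranded polyadenylated RNA libraries, per the labels' protocols. The authors deposited whole-number counts per gene symbol and log2 normalized counts for 73 tumours. Per the submitters' processing notes, build mm10 was used with STAR 2.7.3a, cutadapt 2.10, DESeq and featureCounts 2.0.0. No source used here says whether counting used strand, so overlapping antisense genes cannot be told apart, and near-identical gene copies are uncertain. Counts were tested with edgeR 4.0.16 in R 4.3.3 (quasi-likelihood, TMM scaling, filterByExpr minimum count 10, BH threshold 0.05). The term was the labelled percentage, or the group of 75% and over against 40% and under. DESeq2 1.42.0 and limma 3.58.1 on the deposited log2 values were alternatives. On simulated counts for the slope over 14465 genes, 80.9% of genes given a slope of 0.4 were recovered, and 3.01% of the called genes were false. The simulated levels followed the label apart from random spread. These shares need not hold for real tumours that go against their label.

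Named were Brca1, Brca2, Palb2 and Trp53, cell type markers, the 12 or fewer largest called slopes in each direction, up to 5 called and 2 uncalled members per list, and 8 genes varying most among epithelium-rich tumours. Some of these are not described, and 1 called gene of the matrix proteases and inhibitors is not reported here. Members and lists were chosen with earlier results of these data known.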

Additional observations from a re-analysis of the deposited data

Results flagged for a closer look

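In 18 of 152 genes examined, 1 of the 6 epithelium-rich tumours lay apart from the other 5 on the log2 scale: its gap to the nearest, divided by the range, was above 0.625 (Dixon's 95% limit). Chance flags about 1 in 20 groups when genes are independent and not chosen by their spread. Some genes examined here, such as Mest, were named for their wide spread among these 6 tumours, and genes can vary together. That rate therefore cannot be set against the 18 flags. No cause was tested.

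Tumour 6, labelled 95%, accounted for 13 of the 18. It was lowest for the epithelial genes Epcam (92.4 CPM, against 471 to 1099 in the other 5), Cdh1 (107 CPM, against 516 to 983), Krt7 (8.72 CPM, against 156 to 469.6), Krt8 (10.5 CPM, against 237 to 619), Krt18 (22.8 CPM, against 483 to 1143), Jup (207 CPM, against 391 to 512) and Lcn2 (255 CPM, against 2076 to 3928). It was also lowest for Bard1, at 18.0 CPM against 24.2 to 27.9, and for the macrophage receptor Msr1, at 24.9 CPM against 58.9 to 95.6. It was highest for Abcb1b (17.9 CPM, against 4.26 to 7.15), Fgfr4 (16.8 CPM, against 0.751 to 2.41), Foxf1 (1.92 CPM, against 0.493 to 0.757) and the imprinted gene Mest (1075 CPM, against 7.64 to 28.7).

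Tumour 45 was lowest for Col11a1, at 163 CPM against 429 to 730.2 in the other 5. Tumour 53 was lowest for Col4a2 (389.6 CPM, against 664 to 901) and Lalba (0.689 CPM, against 7.21 to 20.9). Tumour 54.1 was highest for Gpx2 (17.3 CPM, against 1.24 to 2.84) and lowest for Ighm (1.72 CPM, against 6.57 to 10.1).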

How the results depend on the processing

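No paired analysis was possible because the labels give the groups no shared replicate numbers. The calls on the slope depended mainly on tumours 4 and 17. The 1222 genes became 0 by the rank of the percentage, 0 without both tumours and 0 among the 6 epithelium-rich tumours. DESeq2 called 2977 (1533 that rose and 1444 that fell), and the range with 1 tumour left out was 100 (without tumour 17) to 2265 (without tumour 6). Between 873 and 1782 were called under the other settings. The 194 genes of the 2-group comparison became 1467 by DESeq2, 471 with 29 libraries of the sequencing run in the fit, 11 with tumours 54.1 and 54.2 summed, and 0 (without tumour 4, 54.1 or 21.1) to 2120 (without tumour 18) with 1 left out. The share of genes with the same direction between adenocarcinomas and sarcomatoid tumours, 97.9%, was 95.6% with no filter on low counts and 94.7 to 98.6% with 1 tumour left out.

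Of 109 described genes called on the slope, 76 kept their direction under every setting and 16 were called whichever tumour was left out. Calls were lost by 91 without tumour 17, 85 without tumour 4, 42 without 54.1, 29 with 54.1 and 54.2 summed and 25 with 29 libraries, and by 0 under DESeq2. Without tumours 4 and 17 the slope changed sign in Acvrl1 (0.031), Birc2 (0.037), C1qb (0.011), Ccng1 (0.025), Cd3e (0.058), Cfap300 (0.045), Chrdl1 (0.10), Dcun1d5 (0.014), Foxf1 (0.058), Igf2 (0.21) and Mmp7 (0.12). Among the 6 epithelium-rich tumours it did so in Abcb1b (0.43), Abcc1 (0.012), Acvrl1 (0.10), Arhgap42 (0.19), Bard1 (-0.14), Birc2 (0.056), Bmp4 (0.99), Ccng1 (0.091), Cd68 (0.0017), Cfap300 (0.44), Csn2 (-0.060), Cspg4 (-0.17), Dcun1d5 (0.0091), Dync2h1 (0.29), Foxf1 (0.51), H2-DMa (0.050), H2-Eb1 (0.0064), Heyl (-0.28), Igf2 (0.083), Ighm (0.14), Jup (-0.017), Kit (-0.077), Mcam (-0.023), Pgk1 (0.080), Rgs5 (-0.052), Slc16a3 (0.18), Snai3 (-0.0071), Thrsp (-0.38) and Yap1 (0.14). None of these passed. Mest, not called over 9 tumours, had slopes of -0.20 (without tumour 6, called) to 0.33 (without tumour 4) with 1 tumour left out. The causes were not tested. Depth limits genes near 0, such as Wap and Lalba in tumours 4 and 17.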
